A study of Mus musculus with 2 samples.

Results

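Lysosomal hydrolases, lysosomal membrane proteins and the V1 sector of the proton pump were examined in peritoneal macrophages of mice deficient or sufficient in ECM1, extracellular matrix protein 1. The 46 genes were taken by symbol from a list of lysosomal genes, and all 46 were among the 10403 genes with expression values. The RNA came from macrophages of the peritoneal cavity collected after 3 days of elicitation with an agent that the labels call ThG, and the cells had not been activated. The groups were 1 ECM1-deficient library, headed KO-lps-, and 1 ECM1-sufficient library, headed WT-lps-, and the elicitation was common to both. The labels used here do not state strain, sex, age, the allele or the number of mice behind a library. Each genotype is a single library, so nothing could be tested or checked in a replicate, and every difference below compares those libraries.

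Lysosomes are acidic compartments in which hydrolases take apart lipids, glycans and proteins that arrive by phagocytosis, endocytosis and autophagy. Most of these enzymes are soluble glycoproteins, some need small activator proteins to reach their lipid substrate, and the V-ATPase pumps in the protons that keep them active. Macrophages carry many lysosomes because they digest whole cells and microbes, and TFEB with its relatives TFE3 and MITF switches on many lysosomal genes in mammalian cells.

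Expression was given as FPKM, a fragment count scaled by transcript length and by the size of the library, so levels can be set beside each other between genes. Below, a difference is the ECM1-deficient minus the ECM1-sufficient value of log2(FPKM + 1). A difference of at least 1 up or down, or 2-fold once 1 is added to each FPKM, counted as higher or lower. Folds are plain ratios of FPKM. Over the 9032 genes that reached 1 FPKM in either library, 14.8% were higher and 2.17% lower by this measure in the ECM1-deficient library, and the median difference was 0.61. Among genes that reached 1 FPKM in each library, the median gene had 1.73 times the FPKM there, a shift of 0.79 on the log2 scale. Differences after division by that ratio are called relative to the median gene, and on that scale 2.45% of genes were higher and 4.77% lower. The median of the 9032 genes was 0.03 on that scale. The median gene is set by plain ratio, so a gene slightly below it can have a difference above 0.61.

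Of the 46 lysosomal genes, 13 were higher by 2-fold or more in the ECM1-deficient library, 1 was lower by as much and 32 lay within 2-fold. Thus 28.3% of them were higher, against 14.8% of all genes. The 13 were Fuca1, Psap, Sgsh, Lamp2, Tpp1, Grn, Glb1, Man2b1, Gusb, Atp6v1b2, Lamp1, Atp6v1a and Atp6v1e1, and the lower one was Atp6v1f, a small subunit of the V-ATPase. The median difference of the 46 genes was 0.85, beside 0.61 for all genes, and 41, or 89.1%, were above their ECM1-sufficient level, about the 90.5% of all genes for which this held. Relative to the median gene 27 of the 46 lay above it and 19 below, and 58.7% above compares with 54.3% of all genes. On that relative scale 2 were at least 2-fold higher, Sgsh at 1.25 and Fuca1 at 1.07, and 2 at least 2-fold lower, Laptm4a at -1.10 and Atp6v1f at -1.93. When both libraries were instead scaled to the same total FPKM, Psap, Fuca1 and Sgsh were at least 2-fold higher and Atp6v1f lower, where 4.22% of all genes were higher and 3.28% lower. Of the 34 lysosomal genes that reached 5 FPKM in each library, 12 were at least 2-fold higher and 1 lower, where 16.8% of the 2886 genes at such levels were higher and 1.59% lower.

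**Figure D1:**
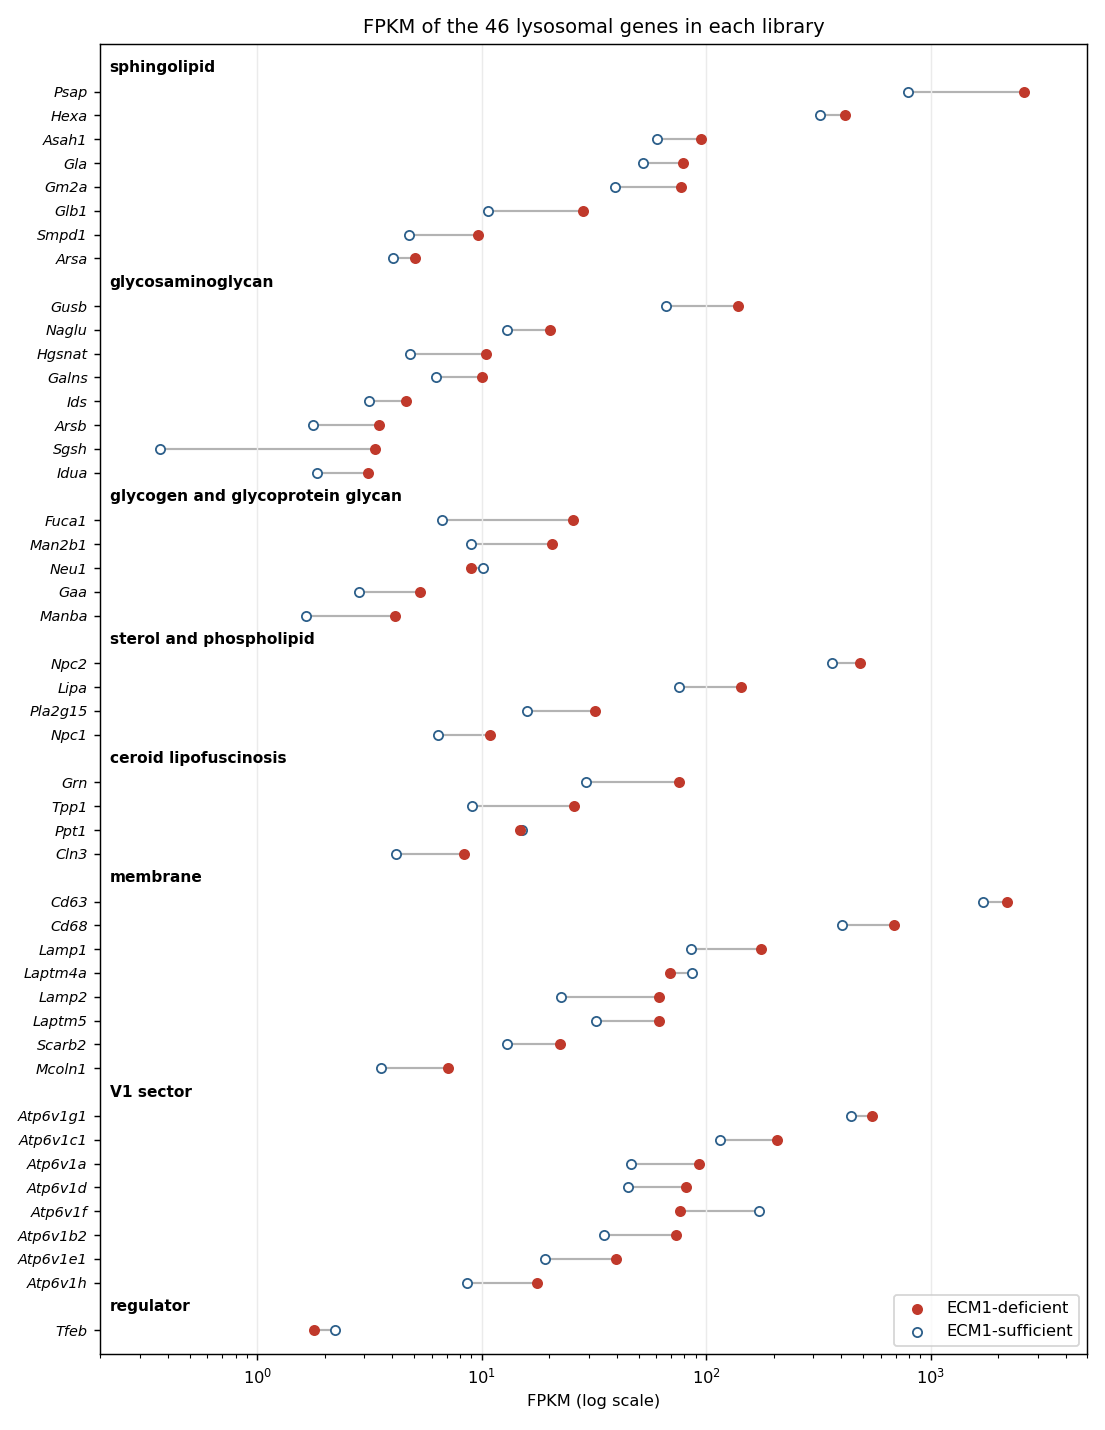
FPKM of the 46 lysosomal genes on a log axis, in their groups, with filled points for the ECM1-deficient library and open points for the ECM1-sufficient library. The filled point lies to the right for 41 genes, a share close to the 90.5% of all genes, and to the left for Atp6v1f, Laptm4a, Neu1, Ppt1 and Tfeb, while relative to the median gene 19 of the 46 lie below it.

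Together the 46 genes held 8786 FPKM in the ECM1-deficient library and 5179 FPKM in the ECM1-sufficient library, which was 4.68% and 3.78% of all listed FPKM. Psap accounted for most of that gain in share. Without it, the other 45 genes held 3.299% of the FPKM in the ECM1-deficient library and 3.198% in the ECM1-sufficient library. In both libraries a few genes carried most of the signal: Psap, Cd63, Cd68, Atp6v1g1, Npc2 and Hexa were each above 300 FPKM, and the lowest levels were those of the acid hydrolases Sgsh, Idua, Arsb and Manba and the regulator Tfeb.

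TFEB binds a sequence called the CLEAR element, whose core is the E-box CACGTG, and the start sites of the genes were searched for both. RefSeq promoters of build GRCm38.p6, from 250 bases before to 50 bases after each start, were at hand for 38 of the 46 genes. Both motifs read the same on both strands, and every CLEAR element contains an E-box. The E-box was found for 10 of the 38 genes, 26.3%, against 12.8% of the 6999 tested genes with a promoter and 8.09% of all 27025 genes with one. The whole CLEAR element was found for 1 of the 38, Cln3, against 0.943% of the tested genes. The stretches around these sites are shown because they are the letters the counts rest on, with the E-box in capitals, 5′ to 3′ on the strand of the gene and cut at the start site.
Lamp1, chr8:13159083-13159160, plus strand: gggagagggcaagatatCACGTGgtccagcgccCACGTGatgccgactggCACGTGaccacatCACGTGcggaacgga
Gla, chrX:134601177-134601249, minus strand: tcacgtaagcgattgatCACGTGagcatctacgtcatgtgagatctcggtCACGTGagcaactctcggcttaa
Mcoln1, chr8:3500431-3500496, plus strand: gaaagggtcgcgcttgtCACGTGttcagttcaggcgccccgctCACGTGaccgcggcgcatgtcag
Cln3, chr7:126583335-126583402, minus strand: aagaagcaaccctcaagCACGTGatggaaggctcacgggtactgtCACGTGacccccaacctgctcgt
Sgsh, chr11:119355517-119355556, minus strand: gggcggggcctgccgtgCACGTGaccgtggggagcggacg
Glb1, chr9:114401013-114401052, plus strand: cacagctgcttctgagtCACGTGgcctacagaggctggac
Atp6v1a, chr16:44139368-44139407, minus strand: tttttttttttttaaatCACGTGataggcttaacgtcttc
Naglu, chr11:101070004-101070043, plus strand: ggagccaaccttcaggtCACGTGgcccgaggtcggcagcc
Gaa, chr11:119267806-119267845, plus strand: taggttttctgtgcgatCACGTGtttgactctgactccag
Arsa, chr15:89477425-89477457, minus strand: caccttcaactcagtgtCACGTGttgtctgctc

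The promoter of Lamp1 held 4 E-boxes, the first beginning 61 and the last 15 bases before the start, and those of Gla, Mcoln1 and Cln3 held 2 each. For Cln3 they lie before the first of 2 listed start sites. The differences of the 10 genes with an E-box ran from 0.26 to 1.66 with a median of 0.85, and 4 of them were at least 2-fold higher. The 28 genes without one had a median of 0.87, with 8 higher and 1 lower, so the genes with and without the letters had nearly the same median. Over the tested genes the medians were 0.64 with an E-box and 0.61 without. At least 2-fold higher were 152 of 899 tested genes with an E-box and 872 of 6100 without. Lower by as much were 15 and 122 of them. Fuca1 and Atp6v1f, at the top and the bottom of the 46 differences, both lacked the letters in this window, and their 250 bases before the start are shown for comparison.
Fuca1, chr4:135920476-135920725, plus strand: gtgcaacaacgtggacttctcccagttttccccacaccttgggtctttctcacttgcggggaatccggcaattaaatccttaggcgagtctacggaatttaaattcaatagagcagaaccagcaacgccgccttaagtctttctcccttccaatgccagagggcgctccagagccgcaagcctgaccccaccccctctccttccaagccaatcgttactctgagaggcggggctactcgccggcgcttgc
Atp6v1f, chr6:29467533-29467782, plus strand: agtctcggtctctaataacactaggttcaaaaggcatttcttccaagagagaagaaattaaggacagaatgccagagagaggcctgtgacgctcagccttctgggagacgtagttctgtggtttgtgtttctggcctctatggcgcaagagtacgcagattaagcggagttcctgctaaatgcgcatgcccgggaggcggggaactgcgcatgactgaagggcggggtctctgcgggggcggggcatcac

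The 8 genes of sphingolipid breakdown all had a larger FPKM in the ECM1-deficient library, as did 90.5% of all genes, while relative to the median gene 4 lay above it and 4 below. The median of their differences was 0.76 as deposited, or 0.03 on the relative scale. Psap, which encodes the precursor of the saposins that lift sphingolipids to their enzymes, was at 2597 FPKM in the ECM1-deficient library and 793 FPKM in the ECM1-sufficient library. It is annotated on chromosome 10 from 60277627 to 60302597 in GRCm38, ranked 4th of all genes by FPKM in the ECM1-deficient library and 21st in the ECM1-sufficient library, and only 176 of 9032 genes had a larger difference. Glb1, the beta-galactosidase that trims GM1 ganglioside and keratan sulfate, was at 28.4 FPKM in the ECM1-deficient library and 10.6 FPKM in the ECM1-sufficient library, 2.67-fold higher. Gm2a, the activator that presents GM2 ganglioside to hexosaminidase, was at 77.5 FPKM in the ECM1-deficient library and 39.4 FPKM in the ECM1-sufficient library, and Smpd1, the acid sphingomyelinase, at 9.61 FPKM in ECM1-deficient and 4.74 FPKM in ECM1-sufficient cells. Both were just within 2-fold in FPKM + 1.

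The other sphingolipid enzymes were within 1.6-fold. Asah1, acid ceramidase, was at 94.5 FPKM in the ECM1-deficient library and 60.3 FPKM in the ECM1-sufficient library. Gla, the alpha-galactosidase lacking in Fabry disease, was at 78.7 FPKM in the ECM1-deficient library and 52.4 FPKM in the ECM1-sufficient library. Hexa, the alpha chain of beta-hexosaminidase, was at 417 FPKM in the ECM1-deficient library and 322 FPKM in the ECM1-sufficient library, and Arsa, the arylsulfatase that acts on sulfatide, was at 5.02 FPKM in ECM1-deficient and 4.03 FPKM in ECM1-sufficient cells. Relative to the median gene these 4 lay below it, with Hexa lowest at -0.41. Within the ECM1-deficient library there were 6.23 FPKM of Psap for each FPKM of Hexa, against 2.47 in the ECM1-sufficient library, a ratio that a common scale of a library cannot change. Galc, the galactosylceramidase gene, lies outside the 46 genes and was chosen after its values were seen. It was at 17.6 FPKM in ECM1-deficient and 14.3 FPKM in ECM1-sufficient cells.

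Glycosaminoglycan enzymes are exo-acting and work in turn on heparan, dermatan and keratan sulfate. The FPKM of all 8 was larger in the ECM1-deficient library, as for 90.5% of all genes, but 4 of them lay below the median gene, and the median difference of 0.65 was close to the 0.61 of all genes. Sgsh, the heparan N-sulfatase, was at 3.33 FPKM in the ECM1-deficient library and 0.370 FPKM in the ECM1-sufficient library. Its 8.99-fold ratio was the largest of the 46 and rests on a level below 1 FPKM, where the depth is unknown. Gusb, beta-glucuronidase, was the most expressed of the group, at 138 FPKM in the ECM1-deficient library and 66.5 FPKM in the ECM1-sufficient library, and its difference of 1.04 was 0.26 relative to the median gene.

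Hgsnat, the membrane enzyme that acetylates heparan sulfate ends, was just short of 2-fold with a difference of 0.99, at 10.4 FPKM in the ECM1-deficient library and 4.77 FPKM in the ECM1-sufficient library. The 5 others lay between 1.47-fold and 1.96-fold by ratio. Arsb, the N-acetylgalactosamine 4-sulfatase, was at 3.48 FPKM in the ECM1-deficient library and 1.78 FPKM in the ECM1-sufficient library, and Galns, the galactosamine 6-sulfatase, was at 10.1 FPKM in ECM1-deficient and 6.29 FPKM in ECM1-sufficient cells. Naglu, which removes N-acetylglucosamine after Hgsnat has acted, was at 20.2 FPKM in the ECM1-deficient library and 12.96 FPKM in the ECM1-sufficient library. Ids, which opens the chain as the iduronate 2-sulfatase, was at 4.62 FPKM in ECM1-deficient and 3.15 FPKM in ECM1-sufficient cells, and Idua, the iduronidase that follows it, at 3.12 FPKM in ECM1-deficient and 1.85 FPKM in ECM1-sufficient cells. Of these 8 enzymes, Sgsh and Gusb were past 2-fold.

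Among the 5 enzymes for glycogen and the glycans of glycoproteins, 2 were at least 2-fold higher and 3 lay within 2-fold, and their median difference of 0.95 was 0.39 relative to the median gene. Fuca1, the alpha-fucosidase, had the largest difference of all 46 genes, 1.79, with 25.5 FPKM in the ECM1-deficient library and 6.64 FPKM in the ECM1-sufficient library. Only 156 of the 9032 genes exceeded it. Man2b1, lysosomal alpha-mannosidase, was at 20.6 FPKM in the ECM1-deficient library and 8.98 FPKM in the ECM1-sufficient library, and Manba, the beta-mannosidase that splits the last mannose link, was at 4.13 FPKM in ECM1-deficient and 1.65 FPKM in ECM1-sufficient cells. Manba was 2.502-fold higher by plain ratio and counts as within 2-fold because 1 is added to its low FPKM. Gaa, which frees glucose from glycogen, was at 5.33 FPKM in the ECM1-deficient library and 2.85 FPKM in the ECM1-sufficient library.

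Neu1, the sialidase, went the other way, at 8.93 FPKM in the ECM1-deficient library and 10.1 FPKM in the ECM1-sufficient library, -0.17 in difference and -0.88 relative to the median gene. NEU1 protein works in a complex with the products of Glb1 and Ctsa. The FPKM of both those genes was more than 2-fold larger in the ECM1-deficient library, Ctsa at 120 FPKM there and 56.1 FPKM in the ECM1-sufficient library. The genes of this complex therefore did not shift together in these libraries.

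The 4 genes of sterol and phospholipid handling lay within 2-fold, with a median difference of 0.80 and of 0.06 relative to the median gene. Lipa, the acid lipase that frees cholesterol from its esters, was at 144 FPKM in the ECM1-deficient library and 75.6 FPKM in the ECM1-sufficient library. Pla2g15, a lysosomal phospholipase, was at 32.1 FPKM in the ECM1-deficient library and 15.9 FPKM in the ECM1-sufficient library, just short of the 2-fold mark with a difference of 0.97. NPC2 hands cholesterol to NPC1 for export through the membrane. Npc1 lay at -0.01 and Npc2 at -0.36 relative to the median gene, while the difference of Npc1, 0.69, was above the 0.61 of all genes. Npc1 was at 10.9 FPKM in the ECM1-deficient library and 6.36 FPKM in the ECM1-sufficient library, while Npc2 was at 486 FPKM in ECM1-deficient and 362 FPKM in ECM1-sufficient cells. There were 44.7 FPKM of Npc2 for each FPKM of Npc1 in the ECM1-deficient library and 57.01 in the ECM1-sufficient library.

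The 4 genes whose loss causes neuronal ceroid lipofuscinosis, a group of storage diseases, were split. Tpp1, tripeptidyl peptidase, was at 25.7 FPKM in the ECM1-deficient library and 9.08 FPKM in the ECM1-sufficient library, 2.83-fold higher. Grn, which encodes progranulin, the secreted precursor of the granulins, was at 75.9 FPKM in the ECM1-deficient library and 29.3 FPKM in the ECM1-sufficient library, 2.59-fold higher. Cln3, a membrane protein, was at 8.38 FPKM in the ECM1-deficient library and 4.15 FPKM in the ECM1-sufficient library, and Ppt1, the thioesterase that strips palmitate from proteins, was nearly level at 14.8 FPKM in ECM1-deficient and 15.2 FPKM in ECM1-sufficient cells. The group's median of 1.11 was 0.39 relative to the median gene, with 3 members above that gene and Ppt1 below it at -0.77.

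**Figure D2:**
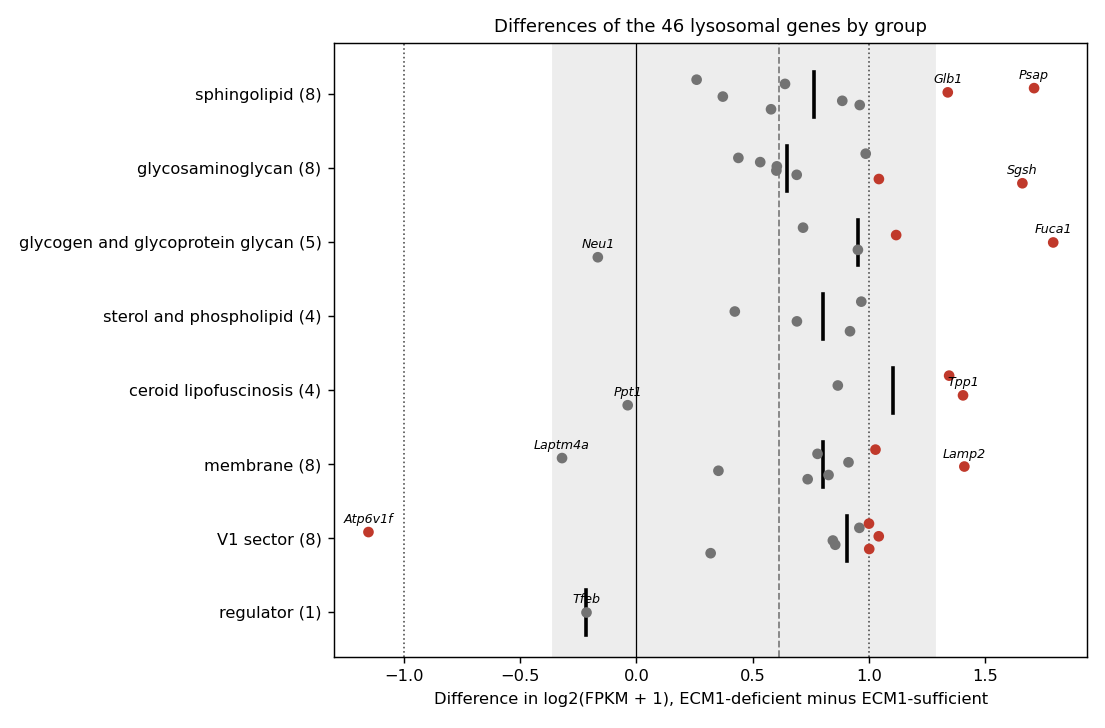
Difference in log2(FPKM + 1) of each lysosomal gene, ECM1-deficient minus ECM1-sufficient, by group, with the number of genes in brackets. Red points are at least 2-fold apart, black bars are group medians, the dashed line is the median of all 9032 genes at 0.61, dotted lines mark 2-fold and the grey band runs from the 5th to the 95th percentile of all genes, -0.36 to 1.28. Fuca1, Psap, Sgsh, Tpp1, Lamp2, Grn and Glb1 lie above the band and Atp6v1f below it. Relative to the median gene, which is set by plain ratio and is not the dashed line, 19 of the 46 lie below.

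Membrane proteins of the lysosome were abundant and moved unevenly. All but Laptm4a had a larger FPKM in the ECM1-deficient library, as did 90.5% of all genes, and relative to the median gene 4 lay above it and 4 below. Lamp1 and Lamp2 encode the heavily glycosylated proteins that line the inner face of the membrane, and LAMP2 also takes part in chaperone-mediated autophagy. Lamp2, on chromosome X from 38401357 to 38456454, was at 61.9 FPKM in the ECM1-deficient library and 22.7 FPKM in the ECM1-sufficient library, 2.73-fold higher. Lamp1, on chromosome 8 from 13159161 to 13175338, was at 175 FPKM in the ECM1-deficient library and 85.4 FPKM in the ECM1-sufficient library, 2.05-fold higher. The Lamp2 to Lamp1 ratio was 0.353 in the ECM1-deficient library and 0.265 in the ECM1-sufficient library.

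Cd63, a tetraspanin of late endosomes, was the most expressed membrane gene and ranked 7th of all genes in each library, at 2197 FPKM in the ECM1-deficient one and 1720 FPKM in the ECM1-sufficient one. GENCODE lists a processed pseudogene, Cd63-ps, that could share its reads. Cd68, the sialomucin used as a macrophage marker, was at 689 FPKM in the ECM1-deficient library and 401 FPKM in the ECM1-sufficient library, the same as the median gene to within 0.01. Scarb2, a membrane receptor that helps deliver cargo to the lysosome, was at 22.3 FPKM in ECM1-deficient and 12.96 FPKM in ECM1-sufficient cells, and Mcoln1, a cation channel that releases lysosomal calcium, at 7.06 FPKM in ECM1-deficient and 3.54 FPKM in ECM1-sufficient cells.

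Laptm5 and Laptm4a, which encode small membrane-spanning proteins, lay on opposite sides. Laptm5, expressed in blood cells, was at 61.7 FPKM in the ECM1-deficient library and 32.3 FPKM in the ECM1-sufficient library. Laptm4a was at 68.9 FPKM in the ECM1-deficient library and 86.3 FPKM in the ECM1-sufficient library. Its difference was -0.32, within 2-fold, and -1.10 relative to the median gene. Laptm4b, outside the 46 genes, was at 5.11 FPKM in the ECM1-deficient library and 5.75 FPKM in the ECM1-sufficient library. At -0.81 relative to the median gene it lay on the side of Laptm4a. The choice of Laptm4b was outside the rule for naming genes of other lists, given below.

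The V1 sector is the cytosolic part of the V-ATPase that splits ATP. Of its 8 genes, 3 were higher by 2-fold or more in the ECM1-deficient library, 1 was lower by as much and 4 lay within 2-fold. Over all genes 14.8% were higher and 2.17% lower. Relative to the median gene 6 of the 8 lay above it, 2 below, and only Atp6v1f was past 2-fold. The catalytic and nucleotide-binding pair moved alike: Atp6v1a was at 93.2 FPKM in the ECM1-deficient library and 46.04 FPKM in the ECM1-sufficient library, and Atp6v1b2 at 73.03 FPKM in ECM1-deficient and 34.9 FPKM in ECM1-sufficient cells. The ratio of Atp6v1a to Atp6v1b2 was 1.28 in the ECM1-deficient library and 1.32 in the ECM1-sufficient library. Atp6v1e1, of the peripheral stalk, was at 39.5 FPKM in the ECM1-deficient library and 19.2 FPKM in the ECM1-sufficient library. Both Atp6v1e1 and Atp6v1a sat on the threshold with a difference of 1.00, and Atp6v1b2 was close to it at 1.04.

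Atp6v1h, the subunit that governs activity, was at 17.6 FPKM in the ECM1-deficient library and 8.58 FPKM in the ECM1-sufficient library, and Atp6v1d, of the central stalk, at 81.6 FPKM in ECM1-deficient and 44.7 FPKM in ECM1-sufficient cells. Atp6v1c1, which regulates the joining of V1 to the membrane, was at 207 FPKM in the ECM1-deficient library and 115 FPKM in the ECM1-sufficient library. Atp6v1g1, the partner of Atp6v1e1 in the stalk, was the most expressed V1 gene at 549 FPKM in the ECM1-deficient library and 440 FPKM in the ECM1-sufficient library, and its difference of 0.32 was -0.47 relative to the median gene. Atp6v1f, which joins Atp6v1d in the central stalk, was at 76.6 FPKM in the ECM1-deficient library and 171 FPKM in the ECM1-sufficient library, 2.24-fold lower.

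Atp6v1f lies on chromosome 6 from 29467718 to 29470512, has 3 annotated exons, and only 160 of the 9032 genes had a smaller difference. It ranked 2nd among V1 genes in the ECM1-sufficient library and 5th in the ECM1-deficient library. The FPKM of the central stalk pair stood at 0.938 of Atp6v1f to 1 of Atp6v1d in the ECM1-deficient library, against 3.84 in the ECM1-sufficient library. Its longest annotated transcript has 806 nt and is the shortest of the 46. Genes with longest transcripts under 1000 nt had a lower median, 0.36 over 479 genes, and 7.72% of them were at least 2-fold lower, against 2.17% of all genes.

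Tfeb itself was weakly expressed, at 1.78 FPKM in the ECM1-deficient library and 2.23 FPKM in the ECM1-sufficient library, -0.22 in difference and -0.74 relative to the median gene. Its relative Tfe3 was at 3.62 FPKM in the ECM1-deficient library and 1.05 FPKM in the ECM1-sufficient library and was counted as higher with a difference of 1.18. Mitf was at 6.47 FPKM in the ECM1-deficient library and 4.34 FPKM in the ECM1-sufficient library, within 2-fold. Tfeb was thus the least expressed of these 3 factors in the ECM1-deficient library and ranked between Mitf and Tfe3 in the ECM1-sufficient library.

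Other lysosomal genes were described from lists outside the 46, beside 14.8% of all genes higher, 2.17% lower and a median difference of 0.61. Of 24 measured soluble enzymes, 6 were past 2-fold on the higher side and 0 on the lower side in the ECM1-deficient library. Their median difference was 0.80 and 15 lay above the median gene. Only 2 of the 24 were at least 2-fold higher relative to that gene, and 0 were lower. Acp2, an acid phosphatase, was at 7.93 FPKM in the ECM1-deficient library and 1.51 FPKM in the ECM1-sufficient library, and Dnase2a, the acid DNase, at 10.8 FPKM in ECM1-deficient and 3.002 FPKM in ECM1-sufficient cells. Of 22 other membrane proteins, 14 lay above the median gene, and relative to it 0 were at least 2-fold higher and 1 was lower. As deposited 5 were higher and 0 lower, with a median of 0.80. They included the cystine exporter Ctns at 8.64 FPKM in the ECM1-deficient library and 3.01 FPKM in the ECM1-sufficient library, the metal transporter Slc11a1 at 35.9 FPKM in ECM1-deficient and 14.6 FPKM in ECM1-sufficient cells, and the lysophospholipid transporter Spns1 at 3.85 FPKM in ECM1-deficient and 1.11 FPKM in ECM1-sufficient cells.

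Of 12 genes that tag, modify or carry hydrolases on their way to the lysosome, 3 were higher and 0 lower. Over all genes 14.8% were higher and 2.17% lower. The 12 had a median of 0.69, 5 lay above the median gene, and relative to it 0 were past 2-fold. Nagpa, which uncovers the mannose 6-phosphate tag, was at 11.5 FPKM in the ECM1-deficient library and 4.27 FPKM in the ECM1-sufficient library, the tag's receptor M6pr at 63.2 FPKM in ECM1-deficient and 28.4 FPKM in ECM1-sufficient cells, and Cln6, of the endoplasmic reticulum, at 3.76 FPKM in ECM1-deficient and 1.23 FPKM in ECM1-sufficient cells. Of 12 cathepsins with legumain, 3 were higher and 1 lower, with a median of 0.81. Ctsz, cathepsin Z, was the lower one, at 356 FPKM in the ECM1-deficient library and 1078 FPKM in the ECM1-sufficient library. Ctsk, the cathepsin that degrades collagen, was at 180 FPKM in the ECM1-deficient library and 84.7 FPKM in the ECM1-sufficient library.

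The list for the V0 sector, the proton channel to which V1 docks, also holds the accessory genes Atp6ap1 and Atp6ap2. Of its 10 measured genes 5 were at least 2-fold higher and 0 lower, where 14.8% of all genes were higher and 2.17% lower. Its median was 0.96, against 0.91 for V1 and 0.61 for all genes. Atp6v0e was at 91.7 FPKM in the ECM1-deficient library and 18.4 FPKM in the ECM1-sufficient library, Atp6v0d2, a subunit of osteoclasts and macrophages, at 378 FPKM in ECM1-deficient and 84.5 FPKM in ECM1-sufficient cells, and Atp6ap2 at 106 FPKM in ECM1-deficient and 23.9 FPKM in ECM1-sufficient cells. Relative to the median gene these 3 were at least 2-fold higher and Atp6v0c, which forms the rotor, was at least 2-fold lower at -1.35, while of the 8 V1 genes 0 were higher and 1, Atp6v1f, was lower. Atp6v0c was at 22.96 FPKM in the ECM1-deficient library and 35.2 FPKM in the ECM1-sufficient library. Atp6v0b, another channel subunit, was at 276 FPKM in the ECM1-deficient library and 291 FPKM in the ECM1-sufficient library, -0.86 relative to the median gene. With 1 library per genotype the 46 genes could not be tested against these lists, whose medians lay between 0.69 and 0.96 around their 0.85.

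**Figure D3:**
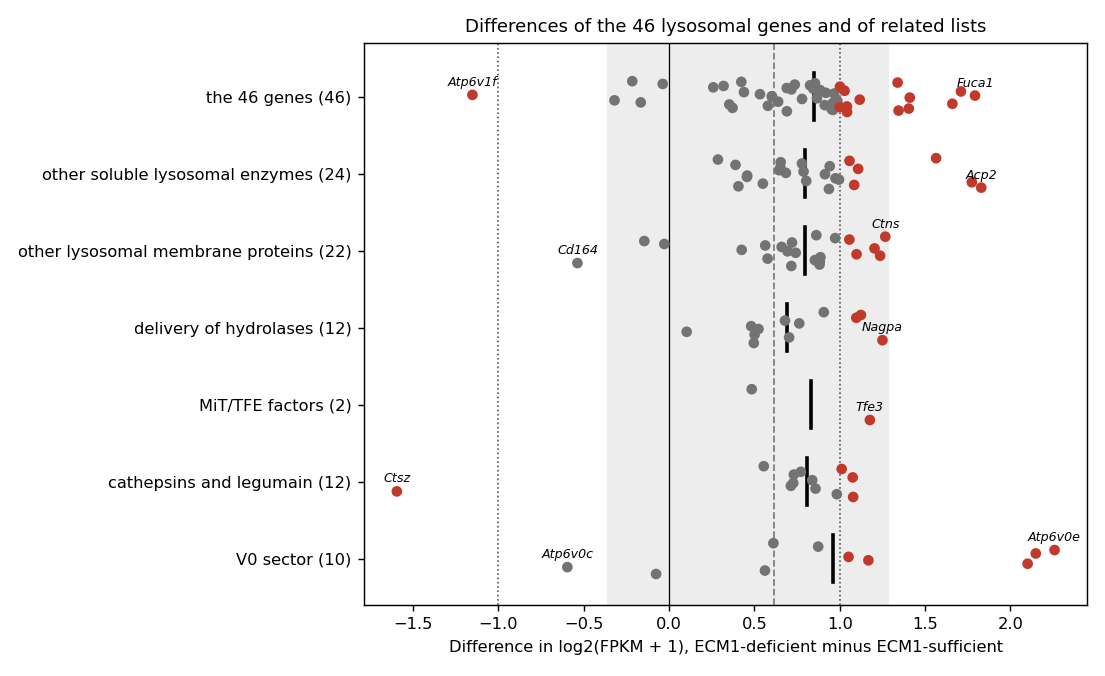
Difference in log2(FPKM + 1), ECM1-deficient minus ECM1-sufficient, of the 46 lysosomal genes and of 6 related lists, with the number of measured genes in brackets. Bars are medians, red points are at least 2-fold apart, and the grey band and the dashed line are the 5th to 95th percentile and the median of all genes. The list medians lie to the right of the dashed line at 0.61, and single genes such as Ctsz and Atp6v1f stand far to the left.

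The 5 members whose longest transcript has under 2000 nt were Atp6v1f, Atp6v1g1, Cd68, Laptm4a and Hexa. Of these 0 were at least 2-fold higher and their median was 0.32, against 13 of 41 and a median of 0.89 for members of 2000 nt or more. Over all genes 16.8% were higher below that length and 14.2% from it on, with medians of 0.57 and 0.63. The contrast among members rests on those 5 genes, of which Hexa at 1996 nt lies at the boundary. Among longer members the medians fell at each step of length, the last step being small. They were 0.97 from 2000 nt to under 3000 nt, 0.86 from there to under 4000 nt and 0.84 from 4000 nt on. Over all genes the medians of these ranges were 0.69, 0.69 and 0.57. The part of transcript length in these results was not tested.

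**Figure D4:**
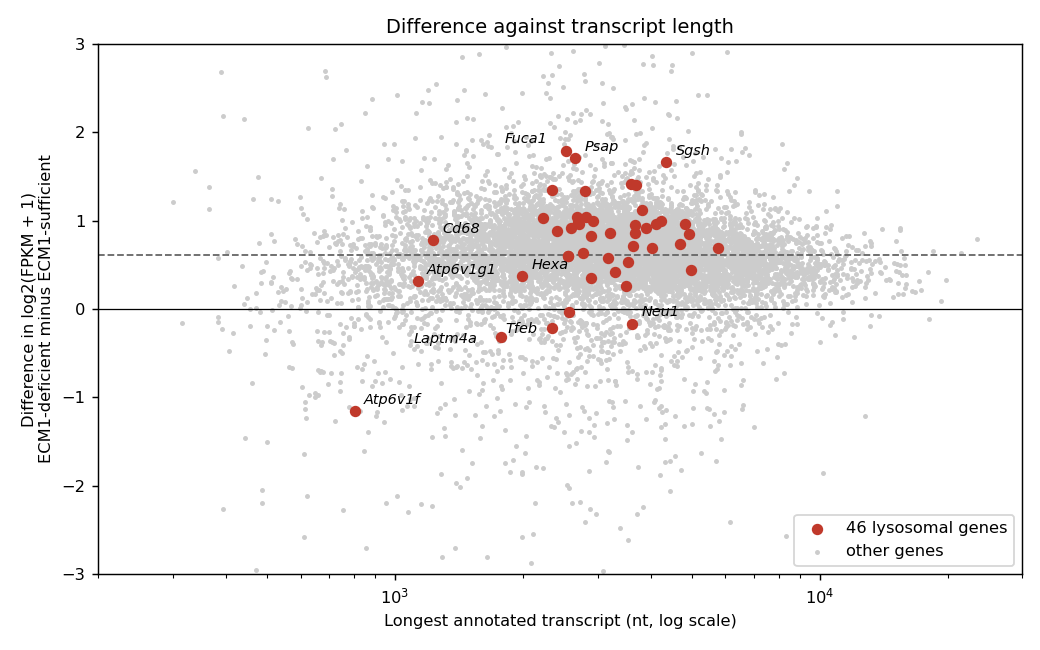
Difference in log2(FPKM + 1), ECM1-deficient minus ECM1-sufficient, against the longest annotated transcript in nt on a log axis, for the 46 lysosomal genes in red and other genes in grey, of which 64 with differences beyond 3 in size are not drawn. The dashed line is the median of all genes at 0.61. Atp6v1f at 806 nt is the shortest red point and the lowest.

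Some of these genes overlap others with FPKM, and the sources used here do not say whether the counting used strand. Ppt1 overlaps Cap1, Cln3 overlaps Apobr, Hexa overlaps Tmem202 and Idua overlaps Dgkq on the opposite strand, and Glb1 shares its strand with Tmppe. Cap1 was at 86.5 FPKM in the ECM1-deficient library and 33.6 FPKM in the ECM1-sufficient library, several times the level of Ppt1, and Apobr at 22.2 FPKM in ECM1-deficient and 4.89 FPKM in ECM1-sufficient cells, so the values of Ppt1 and Cln3 are the least certain of these.

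The libraries carried the markers of macrophages. All 8 macrophage genes were measured, summing to 263 FPKM in the ECM1-deficient library and 121 FPKM in the ECM1-sufficient library. Of these, 5 were at least 2-fold higher, where 14.8% of all genes were, and 6 lay above the median gene, where 54.3% did. Fcgr1, Spi1 and Csf1r led at differences of 1.97, 1.95 and 1.19. Only Fcgr1 and Spi1 were at least 2-fold higher relative to the median gene. Markers of other cells were also found. Of the B cell genes 2 of 5 were listed and summed to 3.92 FPKM in ECM1-deficient and 1.51 FPKM in ECM1-sufficient cells, and 3 of 6 neutrophil genes to 17.7 FPKM in ECM1-deficient and 11.5 FPKM in ECM1-sufficient cells. For eosinophils and mast cells 3 of 6 genes summed to 3.09 FPKM in ECM1-deficient and 1.47 FPKM in ECM1-sufficient cells, and for mesothelial cells and fibroblasts 6 of 9 genes to 64.8 FPKM in ECM1-deficient and 36.8 FPKM in ECM1-sufficient cells. Past 2-fold on the higher side among them were the fibroblast genes Pdgfra, at 7.62 FPKM in ECM1-deficient and 1.57 FPKM in ECM1-sufficient cells, and Dcn, at 28.1 FPKM in ECM1-deficient and 12.8 FPKM in ECM1-sufficient cells. Dcn was thus above Csf1r and Fcgr1 in level in each library. The B cell gene Cd79a was at 2.43 FPKM in ECM1-deficient and 0.378 FPKM in ECM1-sufficient cells, the neutrophil gene Csf3r at 4.03 FPKM in ECM1-deficient and 1.42 FPKM in ECM1-sufficient cells, and the mast cell gene Tpsb2 at 1.31 FPKM in ECM1-deficient cells and listed at 0 in ECM1-sufficient cells. None of the 6 T and NK cell genes was listed, nor were Ms4a1, Ly6g, Prg2 or Msln. In bulk RNA, fewer cells of a type and less RNA per cell cannot be told apart, and the part of cell composition in the lysosomal differences was not tested. Ecm1 was at 1.02 FPKM in the ECM1-deficient library and 5.63 FPKM in the ECM1-sufficient library, the direction of the labels, and Lyz2, the macrophage lysozyme, was at 5.44 FPKM in ECM1-deficient and 2774 FPKM in ECM1-sufficient cells.

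The authors' deposited table of gene ontology terms named 33 of the 46 genes. Of the 4183 genes in the authors' deposited table that have FPKM here, all were higher in the ECM1-deficient library by 1.5-fold or more in FPKM + 1 and 0 were lower, so that table describes one direction. The 33 are the members at least 1.5-fold higher in FPKM + 1, and 1 member, Atp6v1f, was past that fold on the lower side, where 53.7% of all genes tested were higher and 3.68% lower. For lysosome organization the authors' deposited table gave 23 of 49 genes and a fold enrichment of 2.21, with Cln3, Gaa, Naglu and Tpp1 among them. For lysosomal transport the authors' deposited table gave 30 of 56 genes and 2.53, with Hgsnat, Lamp1 and Scarb2, and for sphingolipid catabolic process 9 of 21 genes and 2.02, with Gm2a and Smpd1. For vacuolar acidification the authors' deposited table gave 8 of 12 genes and 3.14, with Cln3 among them. The background of the authors' deposited table was 23313 genes, more than the 10403 with FPKM, so the fold enrichments count genes without FPKM here. Of the 10403 genes, 4943 were at least 1.5-fold higher in FPKM + 1 in the ECM1-deficient library. The 49, 56, 21 and 12 genes of the terms are counted in the larger background. Their shares and that share therefore have unlike denominators. Whether these terms exceed it among genes with FPKM was not tested.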

How the data were processed

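RNA of 1 ECM1-deficient and 1 ECM1-sufficient library was measured after selection with oligo(dT) beads and stranded library preparation, per the labels' protocols. The authors deposited FPKM per gene, per the file headers, together with log2(FPKM + 1) columns and log2 fold changes, which matched the linear FPKM to within 7.67e-14. The submitters' processing notes name HISAT2, StringTie 1.2.3 and build mm9. The coordinates fit GRCm38 in GENCODE M21, where all 10384 identifiers found overlapped their own gene, and they are given as GRCm38. The authors' deposited p-values per gene were all 1 and were not used. The authors' deposited ontology table holds counts of genes, a fold ratio of enrichment and p-values with a false discovery rate. Total reads are unknown, so no counting interval is given.

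Differences used a pseudocount of 1, genes that reached 1 FPKM in either library, and a 2-fold threshold, computed with Python 3.11.15, numpy 2.4.6 and pandas 2.3.3. Rows of the same symbol were summed. For values relative to the median gene, the median ratio of 7329 genes was removed, its square root from each side. The calculation was checked on simulated data. All 46 genes were named. From each other lysosomal list up to 3 genes past 2-fold were named, or the 2 most expressed where there were none. Galc, Laptm4b, Mitf, Atp6v0b, Atp6v0c and the cell markers S100a8, Siglecf, Wt1 and Col1a1 were named outside that rule. Values of some genes of these lists are not reported here. The members and lists were chosen with earlier results of these data known. The arginine and proline gene set was not used here.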

Additional observations from a re-analysis of the deposited data

How the results depend on the processing

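With a pseudocount of 0.1 the median difference of the 46 genes was 0.93, beside 0.80 for all genes, with 18 of the 46 at least 2-fold higher. With a pseudocount of 5 it was 0.60, beside 0.32 for all genes, with 7 at least 2-fold higher. Man2b1, Sgsh, Lamp1, Atp6v1a, Atp6v1b2 and Atp6v1e1 were then within 2-fold. The share of all genes past 2-fold at those pseudocounts is not given here. Over genes that reached 5 FPKM in each library the median was 0.88, beside 0.67 for all genes at such levels. After division by the median ratio 2 genes were higher and 2 lower, where 2.45% of all genes were higher and 4.77% lower. The median was then 0.13, beside 0.03 for all genes. After scaling both libraries to the same total FPKM 3 were higher, where 4.22% of all genes were. The median was then 0.43, beside 0.29 for all genes. At 1.5-fold 33 genes were higher, where 53.7% of all genes were, and at 4-fold 0 were higher and 0 lower. Among genes with a longest transcript of 1000 nt or more, an alternative chosen after seeing the data, 0 were lower, since Atp6v1f is left out. The median there was 0.86, beside 0.63 for all genes of that length. Dropping the FPKM minimum or taking the highest row per symbol left the counts of 13 and 1 and the median of 0.85. The 14 genes past 2-fold could not change sign under the alternatives run. A pseudocount keeps the sign, and the largest rescaling shift, 0.79, is below the 2-fold threshold of 1. Division by the median ratio changed the sign of 14 other genes, and rescaling to equal sums that of 5. No paired analysis was possible because the result comes from no test. With 1 library per genotype no replicate could be left out, and depth is unknown, so values near or below 1 FPKM, such as that of Sgsh, are the least certain.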
